A study of Mus musculus with 5 samples.

Results

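Glutamatergic neurons made up 138 of the 9505 nuclei kept from mouse brain after a sort that was meant to remove neurons. They were chosen from their own transcripts, in nuclei with at least 200 and fewer than 4500 detected genes, fewer than 10000 unique molecular identifiers (UMIs, 1 for each captured RNA molecule) and under 5% mitochondrial UMIs. A nucleus was taken where it held at least 6 summed UMIs of the 6 neuronal genes Snap25, Syt1, Myt1l, Celf4, Grin2b and Kcnip4. It also had to hold at least 1 UMI of the vesicular glutamate transporters Slc17a7 and Slc17a6, more of these than of the GABAergic genes Gad1, Gad2 and Slc32a1, and at most 2 UMIs of the oligodendrocyte genes St18 and Mog. The 138 nuclei came from all 5 libraries, with 39 and 29 in the R241E libraries 1 and 2, and 24, 27 and 19 in the WT libraries 1 to 3.

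The study switched on an active form of cGAS, a sensor of DNA in the cytosol, in microglia, the immune cells of the brain. R241E mice carried the Tmem119-creERT2 driver and 1 Cgas allele with the R241E change, which weakens the hold of nucleosomes on the enzyme, and WT mice carried the same driver with wild-type Cgas. The study states that tamoxifen was given to young adult mice and that the driver acts mainly in microglia and brain macrophages, so the neurons described here were not the cells in which the allele was to be switched on. Nuclei were stained with DAPI and with antibodies against NeuN, the nuclear protein encoded by Rbfox3, and Olig2, and the NeuN-negative and Olig2-negative nuclei were sequenced with a 10x Chromium 3′ kit, with 1 mouse per library. The labels give hippocampus as the tissue and microglia as the cell type, while the methods name brain tissue.

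Glutamatergic neurons load glutamate into synaptic vesicles with vesicular transporters. Slc17a7 is the transporter of most cortical and hippocampal principal cells, and Slc17a6 that of many thalamic, hypothalamic and brainstem neurons and of Cajal-Retzius cells. Cajal-Retzius cells are early-born neurons of the marginal zone that secrete reelin, the protein encoded by Reln, and depend on the transcription factor encoded by Trp73. Some persist around the hippocampal fissure of adult mice, and they are among the neurons that NeuN antibodies leave unstained, along with Purkinje cells and olfactory mitral cells.

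The 138 nuclei were deeper at the median than microglia-like nuclei, but not than GABAergic nuclei. Their median was 4796.5 UMIs and 2175.5 genes per nucleus. The 6227 microglia-like nuclei had a median of 2532 UMIs. Microglia-like nuclei held at least 3 UMIs of 12 microglia markers and under 6 of the neuronal genes. The 277 GABAergic nuclei, chosen by the mirrored rule, had a median of 5057 UMIs. The glutamatergic rule depended on depth, since 25 nuclei met it after every nucleus was thinned to 1000 UMIs. By library, the median of the 138 was 5060 and 4151 UMIs for R241E, and 4449.5, 5485 and 3870 for WT. Depth thus did not separate the genotypes. The summed nuclei of a library held between 82855 and 204285 UMIs. Of 13 barcodes that occurred in 2 libraries, 1 belonged to a glutamatergic nucleus.

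The values that chose the nuclei are a description. The median nucleus held 31 UMIs of the 6 neuronal genes and the highest 151. Just inside the limit, 7 nuclei held 6 or 7 of these UMIs at a median depth of 1628 UMIs, and just outside it 3 otherwise eligible nuclei held 4 or 5 at a median of 1459 UMIs. The transporter call rested on few molecules, with 1 UMI in 80 nuclei, 2 in 38, 3 in 13 and more in 7. As a background level, an Slc17a6 UMI was seen in 0.450% of microglia-like nuclei. None of the 138 nuclei held a UMI of Gad1, Gad2 or Slc32a1, which the rule itself required of the nuclei with 1 transporter UMI.

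Slc17a6 (chromosome 7, 51621830 to 51671126, RefSeq annotation of GRCm38.p6) was the transporter in 123 of the 138 nuclei, or 89.1% (exact binomial 95% interval 82.7 to 93.8%), and Slc17a7 in 15. The rule used the sum of the 2 transporters and not this split. Intervals here and below cover counting error only. Their share by library was 92.3% and 79.3% for R241E, and for WT 95.8%, 92.6% and 84.2%. The mean was 85.8% ± 9.19 (SD, n = 2) in R241E and 90.9% ± 5.998 (SD, n = 3) in WT. The difference of -5.07 percentage points was within the spread between mice (two-sided exact permutation test, p = 0.5, and 2 against 3 mice cannot give a p below 0.1).

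Most of these neurons carried Reln and Trp73. Of the 138 nuclei, 115 (83.3%, interval 76.0 to 89.1%) held at least 5 summed UMIs of the 2 genes, a limit set after the values were seen, so that nuclei on its sides were not tested against each other. Most nuclei fell far to either side of it, with 94 at 20 UMIs or more and 18 at 0, and the median was 33. Nearer to it lay 6 at 5 to 7 and 5 at 1 to 4, and the rest lay above 7 and below 20. The R241E libraries held 33 of 39 and 21 of 29 such nuclei, and the WT libraries 21 of 24, 25 of 27 and 15 of 19, so they were the majority in every mouse. The plot of Reln and Trp73 UMIs per nucleus shows the split.

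**Figure D1:**
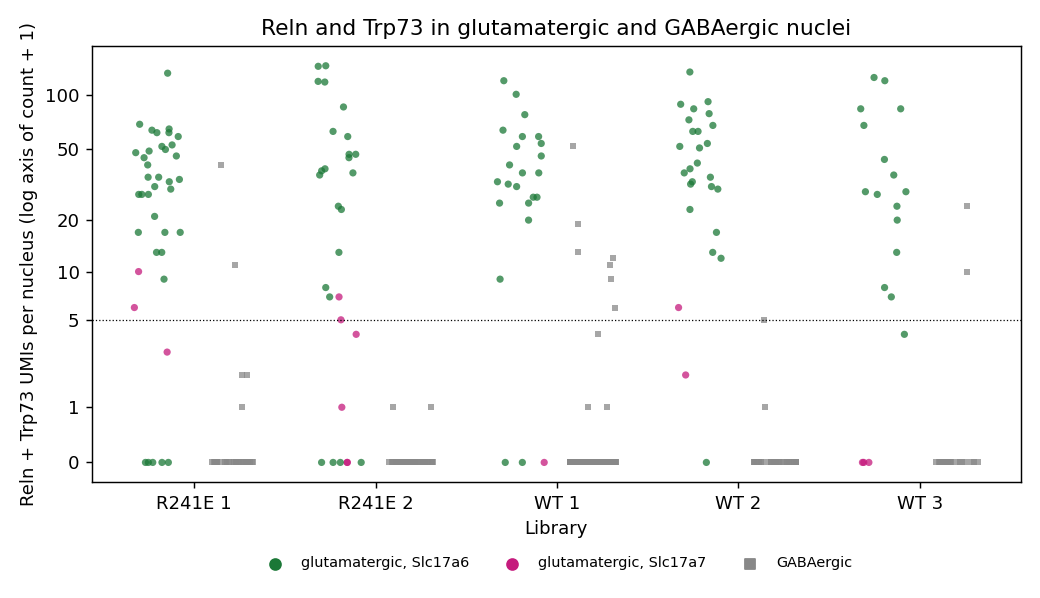
Summed Reln and Trp73 UMIs per nucleus (log axis of the count + 1) in the 5 libraries, for glutamatergic nuclei with more Slc17a6 (green) or Slc17a7 (magenta) UMIs and for GABAergic nuclei (grey squares), with the dotted line at 5 UMIs. In each library most Slc17a6 nuclei lie well above the line and most GABAergic nuclei at 0.

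Reln (chromosome 5, 21884454 to 22344705) was seen in 120 of the 138 nuclei. Summed per library, its level was 5752 and 8484 CPM (UMIs of a gene scaled to a common total of the summed nuclei) in R241E and 8400, 8353 and 8111 CPM in WT. In the 277 GABAergic nuclei, chosen by the mirrored rule, it was 217 and 4.51 CPM in R241E and 159, 40.4 and 320 CPM in WT, and in microglia-like nuclei 4.95 CPM. The lowest glutamatergic library thus stood far above the highest GABAergic one.

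Trp73 (chromosome 4, 154056249 to 154139875) was seen in 100 nuclei, every one an Slc17a6 nucleus that also held Reln. Its level was 636 and 483 CPM in R241E and 501, 615 and 616 CPM in WT, against at most 31.0 CPM in any GABAergic library. The 5 Slc17a7 nuclei among the 115 reached the limit with Reln alone and held no Trp73 UMI. Of the other 110, which are called Slc17a6 Reln/Trp73 nuclei here, 99 held Trp73.

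Other genes of the same fixed list, which covers Cajal-Retzius, unipolar brush and olfactory mitral cells, split by cell type. Ndnf, which encodes a secreted factor and is a known Cajal-Retzius gene, was seen in 106 of the 110 Slc17a6 Reln/Trp73 nuclei, and its level over all 138 was 1865 and 1624 CPM in R241E and 1749, 1981 and 2016 CPM in WT. The LIM homeobox gene Lhx1 was seen in 75 of the 110 and its relative Lhx5 in 26. In contrast Eomes, a unipolar brush cell gene, gave 2 UMIs over the 138 nuclei, and the mitral cell genes Tbx21 and Cdhr1 gave 3 and 1. The list had not been split by cell type when it was fixed, so the nuclei are named here by their genes.

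The shares of nuclei with a UMI were also taken at equal depth. With each nucleus thinned to 1000 UMIs, which left out 4 of the 138, Reln was seen in 85.1% of glutamatergic nuclei, Ndnf in 63.4%, Trp73 in 43.3% and Lhx1 in 20.9%. Without thinning the shares were 87.0%, 78.3%, 72.5% and 58.0%. In microglia-like nuclei thinned in the same way, they were 0.510%, 0.312%, 0.0164% and 0.0658%.

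Rbfox3 (chromosome 11, 118489760 to 118911597), the gene of the NeuN protein by which neurons were to be removed, differed between the transporter groups. It was absent from every Slc17a6 Reln/Trp73 nucleus, with 0 of 110 nuclei and 0 of their 556757 UMIs, which at 3 counts of the total allows a UMI in up to 2.73% of such nuclei (the exact interval reaches 3.30%) and a level of up to 5.39 CPM. Among the 15 Slc17a7 nuclei, 9 held it (60.0%, interval 32.3 to 83.7%), at 754 CPM. They included 4 of the 5 Slc17a7 nuclei that reached the limit with Reln. The Slc17a7 nuclei had the lower depth, with a median of 2381 UMIs against 4941. Among the 13 other Slc17a6 nuclei, 3 held Rbfox3, with 5 UMIs in all.

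Over all 138 nuclei Rbfox3 was thus seen in 12 (8.70%, interval 4.57 to 14.7%), with 35 UMIs. The R241E libraries held 3 of 39 and 3 of 29 such nuclei and the WT libraries 3 of 24, 2 of 27 and 1 of 19, and the levels were 78.3 and 40.2 CPM against 36.4, 64.4 and 12.1 CPM. The share in microglia-like nuclei, which should lack the gene, was 1.38% (5.51 CPM). Thinned to 1000 UMIs, the shares were 4.48% and 0.526%. The counts are of RNA, and NeuN protein was not measured in these files.

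**Figure D2:**
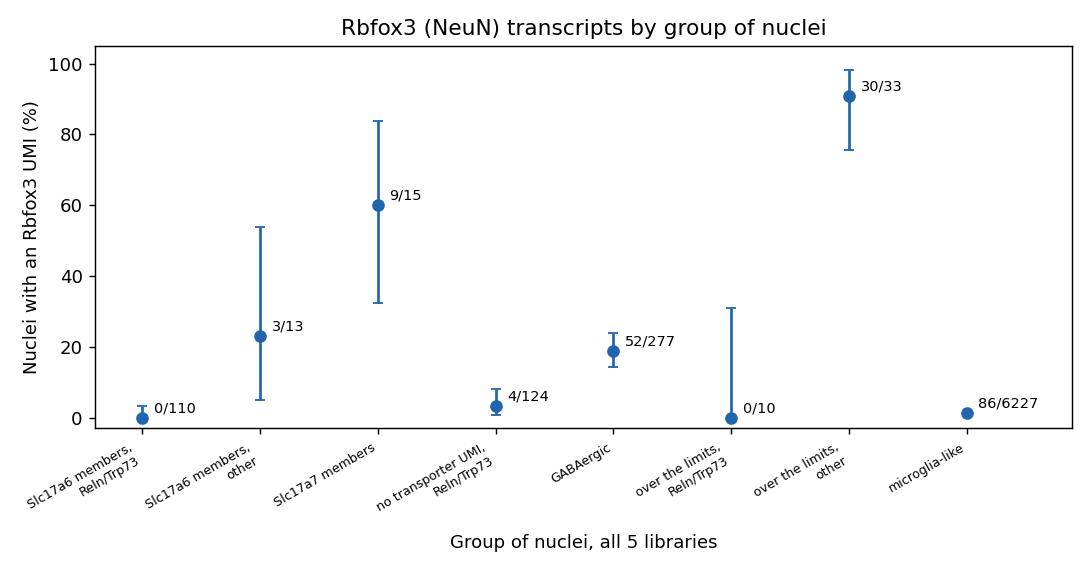
Share of nuclei with at least 1 Rbfox3 UMI, in percent, by group of nuclei over the 5 libraries, with exact binomial 95% intervals and the counts beside each point. The Slc17a6 members, the neurons with no transporter UMI and the nuclei over the limits that held Reln/Trp73 lie at or near 0, while the Slc17a7 nuclei stand at 9 of 15 and the glutamatergic nuclei over the upper limits without Reln/Trp73 at 30 of 33.

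Rbfox1, a splicing regulator related to NeuN, showed the same order. It was seen in 11 of the 15 Slc17a7 nuclei at 5453 CPM and in 21 of the 110 Slc17a6 Reln/Trp73 nuclei at 228 CPM. R241E library 1 held 15 of the 21, and without it the level was 59.6 CPM, in 6 of 79 nuclei. Rbfox2, the remaining gene of that family, was seen in 69 of the 110. A test of Slc17a7 against Slc17a6 nuclei across genes was not made, since no library held 10 Slc17a7 nuclei (3 and 6 in R241E, 1, 2 and 3 in WT).

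Markers of forebrain principal cells were unevenly present. Of 10 further glutamatergic genes, Ptchd4 led with 103 UMIs in 48 nuclei and Baiap2 followed with 72 in 51, while Neurod6, a transcription factor gene of forebrain projection neurons, gave no UMI, and Camk2a gave 20 UMIs in 9 nuclei, none of them among the Slc17a6 Reln/Trp73 nuclei. Pdzd2, held in the list for dentate granule cells, was abundant with 870 UMIs, but Prox1, the defining transcription factor of those cells, gave 9 and C1ql2 and Lct gave 0. For CA1 and CA3 pyramidal cells Grik4 led with 35 UMIs and Nectin3 followed with 19. Of 8 deep-layer genes 7 were detected, led by Tle4 with 135 UMIs in 69 nuclei, a gene at 346 CPM in microglia-like nuclei, and Fezf2 was at 0. Also at 0 were 3 of 5 habenular, 6 of 8 hypothalamic and 9 of 12 mid- and hindbrain genes, the last list led by Lmx1a with 36 UMIs. The thalamic list was led by Rora with 617 UMIs and by the rule's own gene Slc17a6.

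The 23 nuclei below the limit of 5 Reln and Trp73 UMIs were 13 Slc17a6 and 10 Slc17a7 nuclei. At least 2 UMIs of the thalamic list, which includes Slc17a6 itself, were seen in 19 of the 23, of the deep-layer list in 11 and of the upper-layer list in 8. The counts for the other lists were 6 for the dentate, 5 for the cerebellar granule, 4 for the Cajal-Retzius and mitral, 2 for the mid- and hindbrain and 1 each for the CA1 and CA3, habenular and hypothalamic lists. Of the 115 nuclei at or above the limit, 108 held at least 2 UMIs of the thalamic list and 98 of the dentate list. The deep-layer list was met in 34 of the 115 and the upper-layer list in 3. The 23 nuclei thus spread over several lists. The list that led holds a gene of the rule and was met by most of the 115 too, so it does not set the 23 apart.

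The glutamatergic nuclei were next compared with the GABAergic nuclei of the same mice, to ask which genes apart from those of the rule set them off. The GABAergic nuclei numbered 34 and 48 in R241E and 145, 29 and 21 in WT. UMIs were summed per library and class and tested with edgeR's quasi-likelihood test, with library as a block. Of 2792 genes tested, 505 passed at an adjusted p under 0.05 (18.1%), 253 higher in glutamatergic nuclei (9.06%) and 252 lower (9.03%).

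The genes with the largest rise were near absent from GABAergic nuclei. Pik3c2g, which encodes a class II phosphoinositide 3-kinase, had levels of 519 and 298 CPM for R241E and 319, 300 and 290 CPM for WT, against at most 4.34 CPM in any GABAergic library (log2 fold change 7.45 ± 0.39 (SE), adjusted p = 3.1e-05). The classes did not overlap for this gene. Reln itself was higher by 6.15 ± 0.80 (adjusted p = 0.00078), Ndnf by 5.76 ± 0.81 and Trp73 by 5.54 ± 0.47 on the log2 scale.

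Nr2f2, which encodes the nuclear receptor COUP-TFII, was among them together with its neighbour. Its level was 181 and 177 CPM in R241E and 191, 272 and 193 CPM in WT, with 10.3 CPM or less in GABAergic nuclei (log2 fold change 5.54 ± 0.46). The transcript Gm29683, which ends 14093 bases from Nr2f2 on chromosome 7, stood at 832 and 402 CPM in R241E and 875, 794 and 483 CPM in WT, and at 20.6 CPM or less in GABAergic nuclei (6.70 ± 0.46). Both were thus high in every glutamatergic library.

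The remaining named genes on this side were Gfra1, a co-receptor for GDNF, Ntng2, the synaptic adhesion protein netrin-G2, Lrig3, a transmembrane protein with leucine-rich repeats, Tmem163, a zinc transporter of vesicles, and the transcript Gm10475. Their log2 fold changes were 5.67 ± 0.47, 5.62 ± 0.44, 5.50 ± 0.34, 5.50 ± 0.89 and 5.35 ± 0.71. Of the fixed list for Cajal-Retzius, unipolar brush and mitral cells, 4 genes could be tested and 3 rose, namely Trp73, Reln and Ndnf. Lhx1 did not pass, at 2.50 ± 0.82 (adjusted p = 0.066). The median of the 4 was 5.65 on the log2 scale, and that of all genes tested was -0.02.

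**Figure D3:**
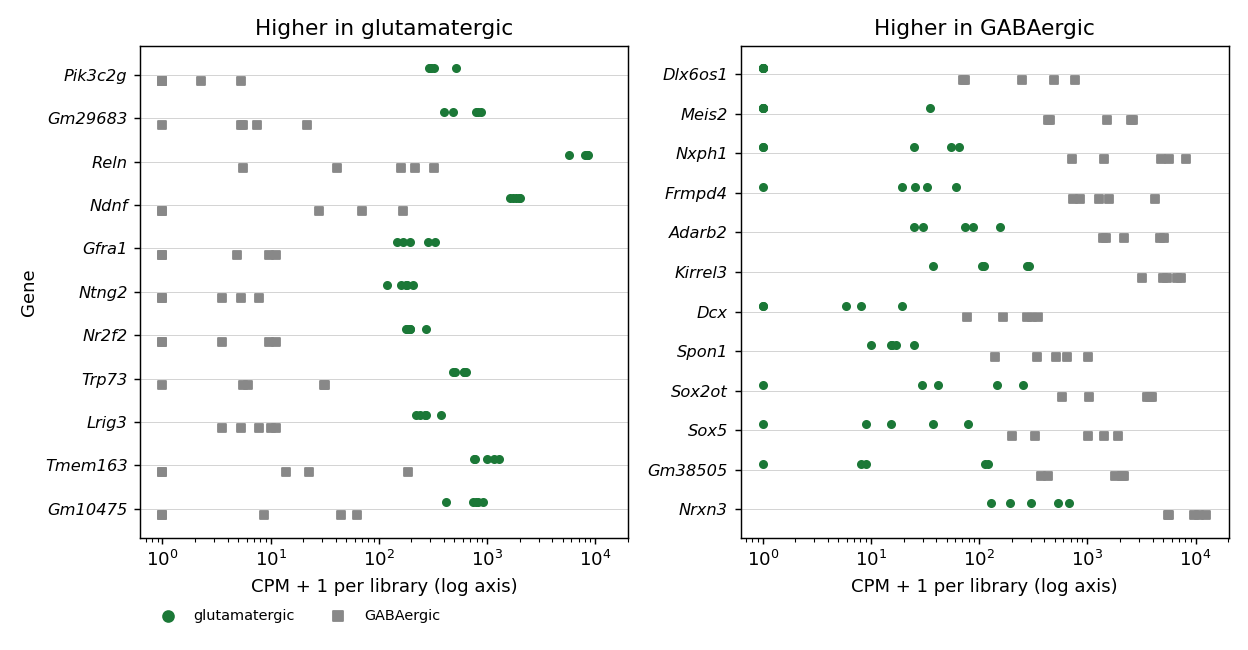
CPM + 1 per library (log axis) for 11 of the named genes higher in glutamatergic nuclei (left) and the 12 higher in GABAergic nuclei (right), with green circles for glutamatergic and grey squares for GABAergic sums. For Trp73 the glutamatergic libraries lie between 483 and 636 CPM and the GABAergic ones at 31.0 CPM or less, and Dlx6os1 is at 0 in all 5 glutamatergic sums.

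The genes on the lower side included some of inhibitory neurons. Dlx6os1, a transcript of the Dlx5 and Dlx6 locus of GABAergic precursors, gave no UMI in the glutamatergic nuclei and 69.4 and 72.2 CPM in R241E and 487, 767 and 248 CPM in WT in the GABAergic nuclei. Pooled over libraries it was at least 82.0-fold lower, taking 3 UMIs over the class as the floor. WT library 1 held 145 of the 277 GABAergic nuclei behind this pooled value, and the R241E libraries had the lowest levels. Whether strand entered the counting is not given in the sources used here, so it was not settled whether its UMIs include reads of genes on the other strand.

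Meis2, a homeobox gene, was at 34.3 CPM in R241E library 1 and at 0 in the other 4 glutamatergic sums, against 447 and 429 CPM in R241E and 2666, 2550 and 1517 CPM in WT in GABAergic nuclei. Nxph1, a ligand of neurexins, reached at most 63.8 CPM against 722 CPM or more (log2 fold change -6.86 ± 0.88). The GABAergic levels of both genes were lower in the 2 R241E libraries than in the 3 WT libraries, and the number of GABAergic nuclei varied from 21 to 145. The other named genes were Frmpd4 (-6.03), Adarb2 (-5.36), Kirrel3 (-5.24), Dcx (-5.12), Spon1 (-4.92), Sox2ot (-4.90), Sox5 (-4.86), Gm38505 (-4.85) and Nrxn3 (-4.77), each a log2 fold change. Of 12 genes of GABAergic identity outside the rule 5 were tested, and 4 fell, among them Adarb2, Dlx6os1 and Erbb4.

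The lists of receptors, release genes and channels are given by their counts, to be read beside the 18.1% of all genes called, 9.06% higher and 9.03% lower. Of 5 metabotropic glutamate receptor genes tested, 4 fell, among them Grm8 (-2.85 ± 0.50), Grm5 (-2.40 ± 0.51) and Grm7 (-2.10 ± 0.41), and the median was -2.40. Of 11 AMPA, NMDA and kainate receptor genes, Gria3 fell (-3.38 ± 0.72) and 10 did not pass, with a median of -0.51. Gria4 and Gria2, the most abundant, stood at 1367 to 1874 CPM and 1431 to 1804 CPM in the glutamatergic libraries. Of 6 genes for GABA-A receptor subunits 3 fell, among them Gabrb1 (-1.63) and Gabra2 (-1.07).

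Of 12 genes of synaptic vesicle release tested, Erc2 (1.64 ± 0.39) and Rims1 (1.28 ± 0.35), scaffold proteins of the presynaptic active zone, rose and 10 did not pass (median 0.23). Of 13 postsynaptic scaffold genes 4 fell, the adhesion protein gene Nlgn1 (-3.23 ± 0.31) and the genes Dlgap1 (-2.95), Dlgap2 (-2.97) and Camk2d (-1.22), and the median was -0.77. Among 14 genes for voltage-gated sodium and calcium channels 4 rose and 4 fell. The risers were the calcium channel subunits Cacna2d1 (2.93) and Cacna2d2 (2.74) and the sodium channels Scn3a (1.45) and Scn2a (0.96), and the others were Cacnb2 (-3.13), Scn1a (-1.72), Cacna1d (-1.29) and Cacnb4 (-0.77).

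Cacna2d1 stood out by level, at 2824 and 2244 CPM in R241E and 3316, 3104 and 2498 CPM in WT, against 131 to 603 CPM in the GABAergic sums. Of 9 neuronal identity genes tested, Cntnap2 (2.53 ± 0.25), an adhesion protein related to neurexins, and Stmn2 (1.32 ± 0.29), a microtubule regulator, rose and 7 did not pass. Among genes of the regional lists Pdzd2 rose (3.69 ± 0.45), and Rora (-2.56 ± 0.37) and Hs3st4 (-3.06 ± 0.36) fell. Of other cell types, P2ry12 of the microglia list (-1.10 ± 0.25) and Lhfpl3 of the oligodendrocyte precursor list (-3.79 ± 0.63) were lower.

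The comparison between genotypes asked whether these neurons differed in number or in transcripts when microglia carried the active cGAS. Of the kept nuclei, 1.62% (interval 1.16 to 2.21%) and 2.14% (1.44 to 3.05%) were glutamatergic in R241E, and 1.56% (1.005 to 2.32%), 1.37% (0.907 to 1.99%) and 0.846% (0.510 to 1.32%) in WT. Both R241E values lay above the 3 WT values, the lower of them by little. With no upper limits on genes and UMIs, with at least 10 neuronal UMIs and after thinning, WT library 1 lay above R241E library 1, and the difference between genotypes was 0.226, 0.628 and 0.114 percentage points. R241E averaged 1.88% ± 0.364 (SD, n = 2) and WT 1.26% ± 0.372 (SD, n = 3), a difference of 0.619 percentage points (two-sided exact permutation test, p = 0.2). The denominator is the sorted nuclei, so a share also moves with the number of microglia in the sort. Among kept nuclei with under 3 microglia marker UMIs, the direction turned, with a difference of -0.632 (exact permutation p = 0.7).

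Reln and Trp73 were also found in neurons that the rule left out. A further 124 neurons with no transporter majority and no GABAergic majority, out of 350 such neurons, held at least 5 Reln and Trp73 UMIs, with 17 and 24 in R241E and 28, 24 and 31 in WT. Adding them to the 115 gave 239 Reln/Trp73 neurons, or 2.08% and 3.32% of kept nuclei in R241E and 3.19%, 2.49% and 2.05% in WT. These shares overlapped between the genotypes, with a difference of 0.120 percentage points (exact permutation p = 0.7), a comparison added after the data were seen.

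**Figure D4:**
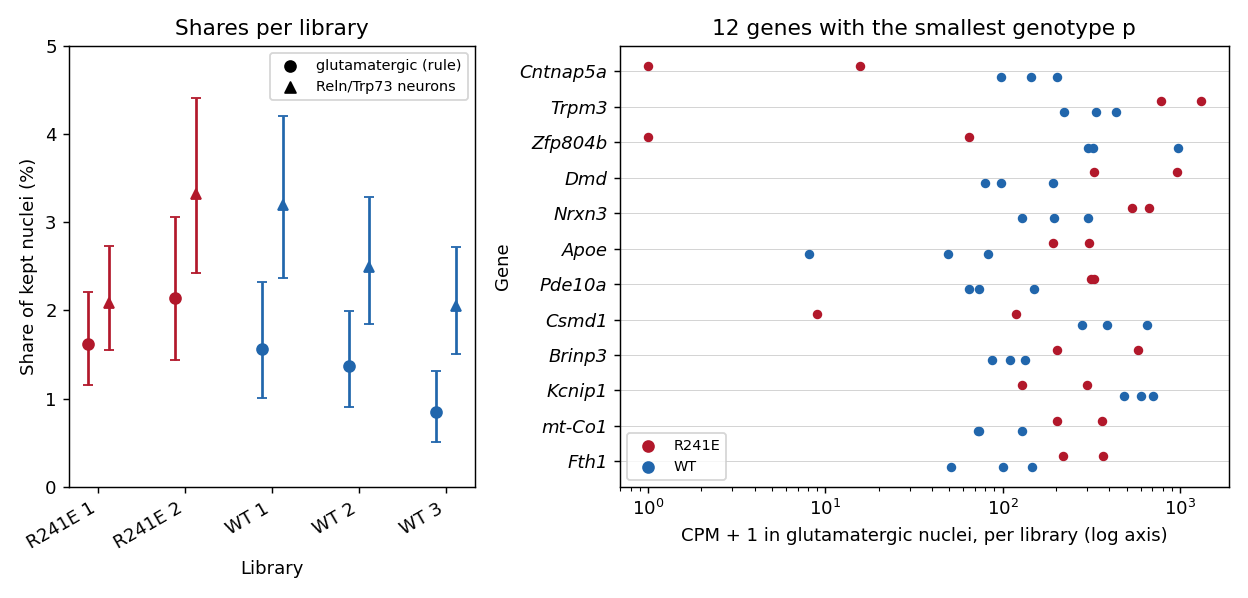
Left, glutamatergic nuclei (circles) and all Reln/Trp73 neurons (triangles) as a percent of kept nuclei in each library, with exact binomial 95% intervals, R241E in red and WT in blue. Right, CPM + 1 per library (log axis) in summed glutamatergic nuclei for the 12 genes with the smallest genotype p, for which no adjusted p in edgeR was under 0.05 and the smallest was 0.0993, while DESeq2 called Trpm3 and Dmd.

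Across genes no difference between genotypes passed. Of 2856 genes tested with edgeR's quasi-likelihood test, 0 had an adjusted p under 0.05 (0%), while 140 had an unadjusted p under 0.05, and DESeq2 called 2, Trpm3 and Dmd. Counts of this size were simulated with a fixed spread between libraries that was not estimated from these data. There 5% of 2-fold and 54% of 4-fold changes were recovered, so at that spread changes of 2-fold would mostly have gone unseen. The CPM of the 2 R241E and 3 WT libraries did not overlap for 552 genes (19.3%), with 272 higher in R241E (9.52%) and 280 lower (9.8%). Leaving out R241E library 1 gave 40 calls and leaving out R241E library 2 gave 19, each on 1 R241E mouse that is assumed to vary like the others.

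The genes with the smallest p in edgeR are given with their values, none of them called by edgeR. Trpm3, a cation channel gene, stood at 778 and 1311 CPM in R241E and 337, 222 and 434 CPM in WT (log2 fold change 1.68 ± 0.32, adjusted p = 0.0993). Dmd, the dystrophin gene, stood at 328 and 957 CPM against 191, 78.7 and 96.6 CPM (2.36 ± 0.46, adjusted p = 0.0993). Cntnap5a, which encodes an adhesion protein, was at 14.7 and 0 CPM against 200, 143 and 96.6 CPM (-3.91 ± 0.70, adjusted p = 0.0993). In each of these genes, picked for a small p, the 2 groups did not overlap, as in 19.3% of all genes tested. In the 115 glutamatergic nuclei with at least 5 Reln and Trp73 UMIs, taken alone, Dmd and Cntnap5a had too few UMIs for a test. The nuclei below that limit numbered 6 and 8 in R241E and 3, 2 and 4 in WT. In all Reln/Trp73 neurons, an alternative chosen after seeing the data, Trpm3 differed by 1.62 ± 0.29 and Dmd by 0.63 ± 0.40.

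Zfp804b, a zinc finger gene, was at 63.6 and 0 CPM in R241E and 301, 322 and 978 CPM in WT (-3.72 ± 0.70, adjusted p = 0.0993). The next were Nrxn3 (1.53 ± 0.33), Apoe (2.48 ± 0.53), Pde10a (1.68 ± 0.36), Csmd1 (-2.58 ± 0.56), Brinp3 (1.92 ± 0.43), Kcnip1 (-1.55 ± 0.35), the mitochondrial gene mt-Co1 (1.66 ± 0.39) and the ferritin gene Fth1 (1.68 ± 0.41), with adjusted p between 0.15 and 0.248 in edgeR. Apoe, the lipid carrier gene made mainly by astrocytes and microglia, was at 191 and 306 CPM in R241E and 82.0, 7.15 and 48.3 CPM in WT. Zfp804b, Apoe, Csmd1 and Pde10a also had too few UMIs for a test in the 115 Reln/Trp73 nuclei alone.

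Markers of other cells were present in these sums, and the genotypes did not overlap for the astrocyte sum but did for the microglia sum. Of the 2 astrocyte and 4 microglia markers tested between genotypes, 0 passed. The 10 astrocyte markers, all detected, summed to 494 and 298 CPM in R241E and to 146, 200 and 217 CPM in WT. Of the 12 microglia markers 11 were detected, and they summed to 206 and 676 CPM in R241E and 246, 501 and 990 CPM in WT. The nuclei with the most held 36 and 31 such UMIs in R241E library 2 and 44 and 15 in WT library 3. At least 2 such UMIs were seen in 48 of the 138 nuclei. Without those 48 nuclei the count of genotype calls stayed at 0, from which it could not fall. There 1515 genes were tested instead of 2856, and Apoe had too few UMIs for a test. The 56 ribosomal protein genes summed to 2971 and 4182 CPM in R241E and 1558, 1180 and 4936 CPM in WT, and of their 14 tested genes 0 passed, with a median log2 fold change of 0.82 beside -0.01 for all genes tested. The part of these RNAs in the genotype values was not tested.

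For the genes that mark these neurons no genotype difference passed. Reln differed by -0.22 ± 0.18, Trp73 by -0.03 ± 0.26 and Ndnf by -0.13 ± 0.21 on the log2 scale. Of the 12 vesicle release, 13 postsynaptic, 13 channel, 10 ionotropic and 3 metabotropic glutamate receptor and 6 GABA-A receptor genes tested, 0 passed in either direction, beside 0% of all genes.

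Of the pathway under study, the sensor and its adaptor gave hardly a UMI in these neurons, while a kinase below them was measured. Cgas gave 1 UMI over the 138 nuclei, in WT library 1, against 67.3 CPM in microglia-like nuclei, and Tmem173, which encodes STING, gave 2. Tbk1, which encodes the kinase that STING engages, gave 103 UMIs in 69 nuclei, with 117 and 209 CPM in R241E and 173, 136 and 181 CPM in WT (-0.02 ± 0.36, not called). The interferon receptor gene Ifnar1 stood at 19.6 and 40.2 CPM in R241E and 18.2, 7.15 and 24.1 CPM in WT, and Ifnar2 at 19.6 and 8.04 CPM against 9.11, 14.3 and 24.1 CPM. The genotypes overlapped for both receptor chains. The TNF receptor gene Tnfrsf1a gave 2 UMIs, 1 in each genotype.

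Interferon-induced genes gave no call. Of the 28 genes of the interferon list used by the study, which it took from earlier work, 8 were at 0 in the 138 nuclei. Enough UMIs for a test were found for 2 of the 28, among them Chic1 (-0.49 ± 0.45), and 0 of the 2 passed, beside 0% of all genes. B2m, the light chain of MHC class I, stood at 14.7 and 88.5 CPM in R241E and 0, 21.5 and 84.5 CPM in WT (0.57 ± 1.497).

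For the MHC class I heavy chains, H2-D1 had 44.1 and 64.3 CPM in the R241E libraries against 18.2, 0 and 109 CPM in WT. H2-K1 stood at 24.5 and 80.4 CPM against 0, 0 and 60.3 CPM. For each of these MHC genes the genotypes overlapped, and library WT 3, high for all of them, also had the highest microglia marker sum. The activity genes Fos and Arc gave 2 UMIs and 1 UMI over all libraries, and none of 20 immediate early genes could be tested.

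Whether the genotype effect differed between glutamatergic and GABAergic nuclei was tested directly in the same libraries. Of 2792 genes 0 passed in edgeR (0%), with 296 at an unadjusted p under 0.05, and DESeq2 called 20. In counts of this size simulated with the same fixed spread, 1% of 2-fold and 18% of 4-fold differences were recovered. Leaving out R241E library 1 gave 8 calls and leaving out R241E library 2 gave 2.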

How the data were processed

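The deposited values were raw UMI counts per gene (32285 genes) and nucleus (9748 nuclei), which the authors made with Cell Ranger 7.0.0 against mm10, with 4183709 to 10130667 UMIs per library. Use of intronic reads and strand is not given in the sources used here. Groups and replicate numbers came from sample titles, and a text on H151 and DMSO, assigned to no sample, was not used. The results of the study name another control genotype than its methods and the titles, which were followed. Against doublets, nuclei over the limits on gene and UMI numbers were left out.

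Counts were summed per library and class and tested with edgeR 4.0.16 (R 4.3.3; TMM, filterByExpr, quasi-likelihood, Benjamini-Hochberg). DESeq2 1.42.0 was an alternative. Genes of the rule were left out of class comparisons. Shares were compared by exact permutation over mice. Scripts were tested on simulated data. Library profiles (log CPM) correlated across genes at 0.762 to 0.848 within genotypes and 0.776 to 0.857 between them, and no library repeated another (chi-square over its degrees of freedom 1.86 to 2.98 between replicates).

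Named genes were, between genotypes, called genes with the smallest p among those whose CPM did not overlap (12 with the smallest p where none was called), between classes, up to 12 in each direction with the largest fold change, the same sign in all libraries and at least 10 UMIs in every library of the higher class, and leading and called genes of each list. Rbfox3, Rbfox1, Rbfox2 and genes of the cGAS, interferon, TNF and activity pathways were always named. Members and lists were chosen with earlier results of these data known. A few genes that met these rules are not reported here.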

Additional observations from a re-analysis of the deposited data

Results flagged for a closer look

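Some signals stood outside the nuclei that the rule selects. Of the kept neurons with no majority of either transmitter's genes, 124 held at least 5 Reln and Trp73 UMIs, with Reln at 8644 CPM, Trp73 in 103 nuclei and Ndnf in 116, against 12 of 277 GABAergic nuclei and 18 of 8740 nuclei that were not neurons. An Rbfox3 UMI was seen in 4 of the 124. As a description, sums of the 124 were set beside sums of the 115 glutamatergic nuclei above the same limit, library by library. Their log CPM correlated at 0.760 to 0.831 over 3903 genes. Sums of the 115 correlated with those of GABAergic nuclei at 0.509 to 0.658, and the 124 were not compared with GABAergic nuclei. Both the 124 and the 115 were chosen by Reln and Trp73, so their likeness is not a test.

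Among 43 nuclei that met the glutamatergic rule but exceeded the limits on genes or UMIs, 30 held an Rbfox3 UMI, at 330 CPM over the 43. The 10 of them with at least 5 Reln and Trp73 UMIs held none, at a median of 11164 UMIs, and the 30 were among the 33 others, at a median of 18873 UMIs. By transporter the 43 were 21 Slc17a7 and 20 Slc17a6 nuclei, with 2 ties. Groups of 2 and 3 libraries are too small for a check of single outlying samples.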

How the results depend on the processing

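Genotype calls (0 in the edgeR result) numbered 2 with DESeq2, 49 with no low-count filter, 1 with Slc17a6 nuclei alone (Zfp804b) and 5 with all Reln/Trp73 neurons, an alternative chosen after seeing the data, in which Ralyl, Fgf14, Rbfox1, Trpm3 and Tenm1 were higher in R241E. Leaving out each library gave 0 to 40, the 1 call without WT library 3 included. They stayed at 0 with DESeq2 size factors and with a stricter neuronal limit. With fewer genes tested they also stayed at 0 without nuclei that held microglia UMIs (1515 genes), after thinning (393) and in the Reln/Trp73 members alone (2054). The cause was not tested. Of the 12 genes named for genotype, Csmd1 turned to 0.0145 in all Reln/Trp73 neurons, 118 other values kept direction and side of the threshold and 45 passed it. In the Reln/Trp73 members alone, Dmd, Cntnap5a, Zfp804b, Apoe, Csmd1 and Pde10a of these 12 had too few UMIs for a test.

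Class calls (505) numbered 1200 with no filter and 273 without nuclei that held microglia UMIs, where 1436 genes were tested, and 379 to 527 with a library left out. All 24 genes chosen by the rule kept direction and call in the alternatives run (236 values). Calls for the difference of genotype effects (0) numbered 20 with DESeq2, 119 with no filter and 0 to 8 with a library left out.

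The share difference (0.619) turned to -0.632 among nuclei with under 3 microglia UMIs and ran from 0.361 to 0.876 with a library left out. The Slc17a6 share difference (-5.07) turned to 7.497 with no upper limits and, with a library left out, ran from -11.6 to the 1.43 without R241E library 2.

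Titles give both groups numbers 1 and 2, and a fit with a replicate block called 28 genes between genotypes. Deviations of same-numbered samples correlated at 0.118 and -0.0256. With 2 R241E libraries these deviations mirror each other, so the correlations cannot decide whether the samples are paired. The titles link them by number alone. Slc17a7 nuclei alone were not tested, WT library 1 holding 1.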

Other observations

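Of the 138 glutamatergic nuclei 3, all in R241E library 2, held 75, 129 and 61 summed UMIs of Sag, Gnb3, Cngb3, Mpp4, Rpgrip1 and Otx2os1, genes known from photoreceptors and the pineal gland. They were chosen after their values were seen. The 3 nuclei had 4869, 9584 and 5826 UMIs and 2, 4 and 1 UMIs of Slc17a6, and held no UMI of Reln, Trp73, Slc17a7 or Rbfox3. Every other glutamatergic nucleus held at most 2 UMIs of these 6 genes. All 6 genes were among the 40 called between genotypes without R241E library 1.

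Ebf3, a transcription factor gene, was also singled out after its values were seen. It was found in 87 of the 110 Slc17a6 Reln/Trp73 nuclei at 489 CPM, in 88 of the 124 Reln/Trp73 neurons with no transmitter majority at 494 CPM, and in 10 of 277 GABAergic nuclei at 13.6 CPM.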
